A study of Bos taurus with 8 samples.

Results

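This account follows 4 bovine miRNAs of white blood cells in plasma exosomes of cattle: bta-miR-223, both arms of miR-142 (bta-miR-142-5p and bta-miR-142-3p) and bta-miR-21-5p, with the species prefix left out from here on. They were chosen by name out of 744 bovine miRNAs on the array, as miRNAs known from myeloid cells or from leukocytes in general, by a rule that uses no measured value, although earlier results of these data were known when they were chosen. Of these 4, 3 were detected on all 8 arrays, as were 143 of the 744 miRNAs, and miR-142-3p was detected on 0 of 8.

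The animals were Japanese Shorthorn steers (castrated males), kept either on pasture or in a free-stall barn where they received harvested grass, and blood was drawn at 0, 1, 2 and 4 mo of the trial. Exosomes, small vesicles that cells release, were collected from EDTA plasma by ultracentrifugation, and for every group and month the exosomal RNA of 3 steers was mixed. Each pool was hybridized to 1 array, which gives 4 arrays labelled housed and 4 labelled grazing, with no second array of any pool. The 0 mo samples mark the start of the trial.

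Circulating miRNAs are short RNAs that pair with messenger RNAs and lower their output, and blood cells are among their main sources in plasma. miR-223 is made above all in neutrophils and monocytes, where it restrains granulocyte production and inflammatory signalling, and platelets also carry much of it. The miR-142 hairpin is expressed throughout the blood cell lineages, and each of its arms can act as a mature miRNA. miR-21-5p is made in many tissues, is raised in activated leukocytes and in many tumours, and acts on inhibitors of growth and survival signalling.

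The probes that read these miRNAs are shown because all values below rest on them. Each miRNA had nested probes that share their 5′ part and differ by bases added at the 3′ end. The longest probe of each is printed 5′ to 3′, with the bases that shorter probes lack in capitals.
miR-223: tggggtatttgacaaactgaC
miR-142-5p: gtagtgctttctactttatG
miR-142-3p: catccataaagtaggaaaC
miR-21-5p: agtcaacatcagtctgaTAA

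The stretches of RNA that pair with these probes, read as their reverse complements, were as follows, with the capitals marking the same added bases.
miR-223: Gucaguuugucaaauacccca
miR-142-5p: Cauaaaguagaaagcacuac
miR-142-3p: Guuuccuacuuuauggaug
miR-21-5p: UUAucagacugauguugacu

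miR-223 and each miR-142 arm had 2 probes with 20 spots each, and miR-21-5p had 4 probes of 17 to 20 bases with 10 spots each. No probe shared a run of more than 9 bases with the probe of another miRNA. The stretches of the miR-142 arms can pair with each other over part of their length, since the 10 bases CATAAAGTAG of the miR-142-5p stretch also stand in the miR-142-3p probe.

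The array design placed the longest miR-223 probe on chromosome X at 99936372 to 99936391, a span of 20 bases for a probe of 21. For the miR-142 and miR-21 probes it gave a pair of placements on chromosome 19, and the header names UMD_3.1 without saying which of the pair belongs to it. These were 8516968 to 8516987 and 9527320 to 9527339 for miR-142-5p, and 8517010 to 8517028 and 9527362 to 9527380 for miR-142-3p. The longest probes of the arms were thus 22 bases apart in either placement. For miR-21-5p the placements were 10049144 to 10049163 and 11033083 to 11033102. In the order of genes on ARS-UCD2.0, MIR223 lay within the span of VSIG4 and next to MSN, MIR142 lay within the span of TSPOAP1, and MIR21 lay between VMP1 and TUBD1. Exon and intron positions are not analysed here.

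The arrays were of the 1-colour kind, and each value is the total gene signal, the background-subtracted brightness summed over the probes of a miRNA, with the error estimate of the scanner software. That estimate covers the spots of 1 array and not the differences between steers. Summed over detected miRNAs, the signal was 157696 on the array labelled housed 0 mo and between 45507 and 90951 on the other arrays. Signals were therefore divided by the 90th percentile of their array over all 744 miRNAs, which lay between 31.2 and 109, and the quotient is called scaled signal below. All arrays lay on 1 slide with the labels in separate columns and the months in separate rows, so slide position cannot be told apart from feeding group or month. In a pooled sample, fewer vesicles of a cell type and less of a miRNA per vesicle cannot be told apart either.

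The feeding labels of the arrays are contradicted by the table of values supplied with the study. For every array labelled housed, each detected miRNA lay within 1% of a column whose legend reads grazing, and those labelled grazing lay within 1% of the columns headed A, taken as those the legend reads as housed, with at most 12 matches in any other column. The deposited labels are used here, and every direction between the labels turns over when read by that table. The study's text names miR-144 and miR-451 as the only miRNAs rising in grazing and not in housed cattle, as that table reads. Their mean log2 changes from 0 mo over the later months were 0.88 and 0.60 labelled housed, against -0.21 and -0.17 labelled grazing. The same text names miR-150 and miR-223 among those tending to rise in housed and not in grazing cattle. Here they changed by -1.12 and 0.27 labelled housed, against -0.02 and 0.90 labelled grazing.

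The longer probe was the brighter one for each detected miRNA on 8 of 8 arrays. For miR-223 the longest probe gave 2.06 to 2.25 times the signal of the shortest, for miR-142-5p 1.78 to 1.91 times, and for miR-21-5p 8.65 to 11.0 times. Changes over time hardly depended on the probe, since the probes of miR-223 differed by at most 0.09 and those of miR-142-5p by at most 0.07 in their log2 change from 0 mo. The probes of miR-21-5p differed by up to 0.31, with a median gap of 0.08. All 320 spots of miR-223 and all 320 of miR-142-5p over the 8 arrays were well above background, as were 315 of 320 for miR-21-5p, and 0 were saturated.

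**Figure D1:**
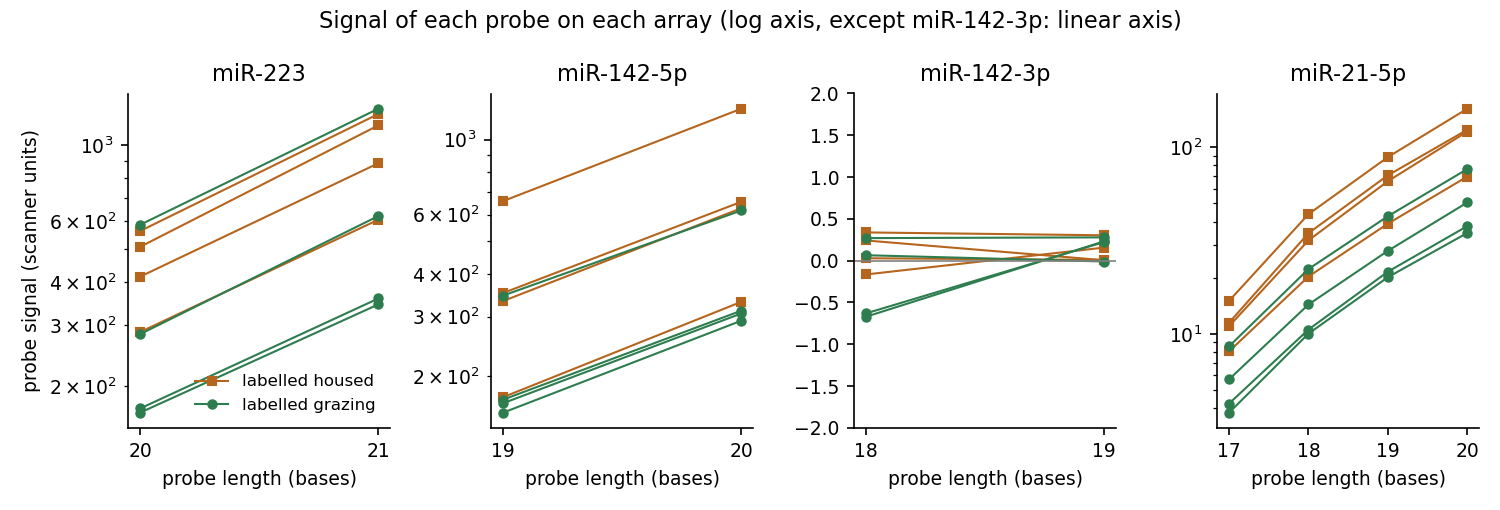
Signal of each probe in scanner units against its length in bases, with a line for each array (squares, labelled housed; circles, labelled grazing); the axis is logarithmic except for miR-142-3p. The lines of the 3 detected miRNAs go up with length on 8 of 8 arrays, whereas the miR-142-3p probes lie around 0 on all of them.

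Only the 5p arm of miR-142 was detected. The total gene signal of miR-142-3p was 0.641, -0.00824, 0.0374 and 0.247 labelled housed (0, 1, 2 and 4 mo), and 0.0550, -0.438, -0.406 and 0.549 labelled grazing. Its error estimate was 1.86 to 2.13, so that no value exceeded 0.345 times its error, and 0 of its 320 spots were well above background. The lowest signal with a detection flag was 3.28 to 4.10 on these arrays. The opposite arm of the miR-21 hairpin, miR-21-3p, was likewise detected on 0 of 8 arrays, with signals of -1.24 to 0.616 and 1 of 320 spots well above background. These values bound what the probes gave and do not show that the RNAs were absent.

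miR-223 was among the brightest miRNAs of every array, and its scaled signal was highest at 1 and 2 mo under the grazing label. The total gene signal was 1645, 1791, 894 and 1300 labelled housed (0, 1, 2 and 4 mo), and 532, 905, 1859 and 513 labelled grazing. Scaled signals were 15.1, 21.5, 17.6 and 15.8 labelled housed, and 13.1, 29.0, 33.1 and 15.0 labelled grazing. In scaled signal the arrays labelled grazing at 1 and 2 mo lay above all others, and the remaining 6 lay between 13.1 and 21.5. In total gene signal and in share of the summed signal, only the array labelled grazing 2 mo lay above all others. The share was 2.12% labelled housed 1 mo, against 1.99% labelled grazing 1 mo and 2.92% labelled grazing 2 mo.

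Among the detected miRNAs of an array, miR-223 ranked 7th to 15th by signal. It held 1.04% to 2.12% of the summed signal on the arrays labelled housed and 0.928% to 2.92% on those labelled grazing. Binding strength varies between probes, so ranks and shares describe signal and not numbers of molecules.

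From the 0 mo array of its own label, the log2 change of miR-223 was 0.51, 0.22 and 0.06 at 1, 2 and 4 mo labelled housed, with an error estimate of 0.15 for each. Labelled grazing it was 1.15, 1.34 and 0.20, with the same error. The changes at 1 and 2 mo labelled grazing were each the 3rd largest of 143, and their mean with 4 mo, 0.90, was the 2nd largest. At 4 mo the change exceeded its error estimate under the grazing label and not under the housed label. Being above the own 0 mo array at all later months under both labels was shared by 27 of 143 miRNAs (18.9%). For miR-223 it held under 7 of 10 scalings or signals (the main one included), the exceptions being let-7g scaling (-0.18 at 4 mo labelled housed), no scaling and normexp.

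miR-142-5p followed opposite courses under the labels. Its total gene signal was 1892, 961, 505 and 1007 on the arrays labelled housed, and 448, 473, 964 and 483 on those labelled grazing. Scaled signals were 17.4, 11.5, 9.97 and 12.2 labelled housed and 11.0, 15.1, 17.2 and 14.1 labelled grazing. The housed course started at its highest value and the grazing course at its lowest. At the later months the labels did not overlap, with 9.97 to 12.2 labelled housed against 14.1 to 17.2 labelled grazing, which was also the case in the same direction for 28 of 143 miRNAs (19.6%).

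The log2 change of miR-142-5p from 0 mo was -0.59, -0.80 and -0.51 at 1, 2 and 4 mo labelled housed, and 0.46, 0.64 and 0.36 labelled grazing, each with an error estimate of 0.15. All 6 changes exceeded that error. A course below the own 0 mo array at all later months labelled housed and above it labelled grazing was shown by 13 of 143 miRNAs (9.09%), and the reverse by 0. For miR-142-5p it held in sign under 10 of 10 scalings or signals, the main one and signals without scaling included. Some of these changes were smaller than 0.15. With the summed detected signal as divisor, those labelled housed were -0.07 and -0.12 at 1 and 4 mo. Without scaling, those labelled grazing were 0.08 and 0.11 at these months. The start differed already, since at 0 mo the array labelled grazing was lower by a log2 difference of -0.66, against a median of -0.22 over all 143 miRNAs. Lower labelled grazing at 0 mo and higher at all later months was found for 11 of 143 miRNAs (7.69%), of which miR-142-5p was 1.

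miR-21-5p was level under the housed label. Its total gene signal was 308, 241, 137 and 230 on the arrays labelled housed and 74.1, 98.5, 150 and 68.7 on those labelled grazing, and it ranked 48th to 58th among the detected miRNAs. Scaled signals were 2.83, 2.90, 2.70 and 2.79 labelled housed, a range within the error estimates, and 1.82, 3.15, 2.67 and 2.01 labelled grazing. Labelled grazing, the array of 1 mo lay above the housed values, that of 2 mo lay within its error of them, and those of 0 and 4 mo lay below.

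The log2 change of miR-21-5p from 0 mo was 0.03, -0.07 and -0.02 labelled housed and 0.79, 0.55 and 0.14 labelled grazing, with an error estimate of 0.13. The change at 1 mo labelled grazing was the 11th largest of 143. The flat housed course depended on the scaling: with the summed detected signal as divisor the changes were 0.55, 0.17 and 0.37, and with let-7g they were -0.11, -0.22 and -0.26.

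**Figure D2:**
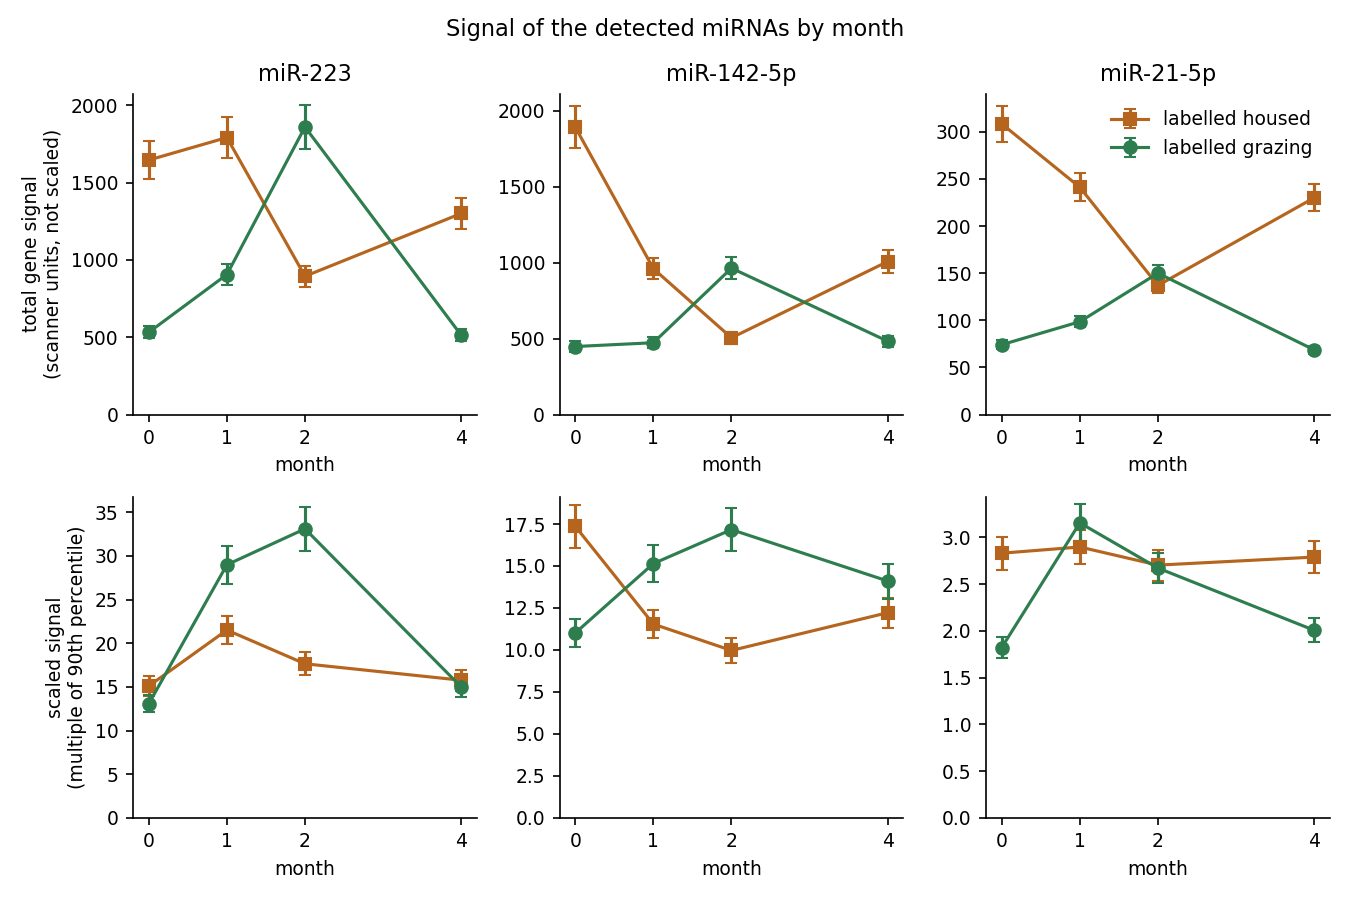
Total gene signal in scanner units (top) and scaled signal as a multiple of the 90th percentile of the array (bottom) against month, with 1 pool of 3 steers per point and bars for the error estimate of the scanner software. After scaling, miR-223 peaks at 33.1 labelled grazing 2 mo, miR-142-5p goes in opposite directions from 17.4 and 11.0, and miR-21-5p stays between 2.70 and 2.90 labelled housed.

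None of the 3 detected miRNAs differed between the labels at the later months after adjustment. The comparison used the 6 arrays of 1, 2 and 4 mo with month as a block, in limma over all 143 miRNAs with Benjamini-Hochberg adjustment, and 16 of 143 (11.2%) passed an adjusted p of 0.05, 9 of them higher labelled grazing (6.29%) and 7 lower (4.9%). For miR-223 the log2 difference, grazing minus housed, was 0.42 (SE 0.22, limma adjusted p = 0.184), and by month it was 0.43, 0.91 and -0.07. The difference of miR-142-5p was 0.46 (SE 0.20, unadjusted p = 0.0375, limma adjusted p = 0.112), and by month it was 0.39, 0.78 and 0.21. For miR-21-5p it was -0.12 (SE 0.20, limma adjusted p = 0.692), with 0.12, -0.02 and -0.48 by month, and 0.05 without the 4 mo arrays. The fit had 2 residual degrees of freedom. Scaled to let-7g, which moved the median of all 143 miRNAs from -0.01 to 0.32, the difference of miR-142-5p was 0.79 (limma adjusted p = 0.0390, against 0.0390 to 0.707 over all settings). Without scaling that median was -0.85, and miR-223 and miR-142-5p stood at -0.42 and -0.38. Both differences were smaller with the summed signal as divisor (0.14 and 0.18), but that divisor also moved the median of all 143 miRNAs, to -0.29. They were also smaller with normexp (0.08 and 0.12, median 0.04) and without the 2 mo arrays (0.18 and 0.30, median -0.06). Without the 4 mo arrays that of miR-223 was 0.67.

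Nor did any of the 3 pass the test of the change from 0 mo over both labels, which used all 8 arrays with the label as a block and which 10 of 143 miRNAs passed (6.99%), 9 of them lower (6.29%) and 1 higher (0.699%). The log2 change was 0.58 for miR-223 (SE 0.29, limma adjusted p = 0.271), -0.07 for miR-142-5p (SE 0.24, limma adjusted p = 0.858) and 0.24 for miR-21-5p (SE 0.20, limma adjusted p = 0.484). Without the 4 mo arrays miR-223 passed, at 0.81 (limma adjusted p = 0.0212, against 0.0212 to 0.946 over all settings). Its value was 0.27 without the array labelled grazing 0 mo and 0.90 without the array labelled housed 0 mo. The value of miR-142-5p was 0.49 without the array labelled housed 0 mo, which had the highest summed signal, and that of miR-21-5p was -0.02 without the array labelled grazing 0 mo. For miR-142-5p the mean over the labels thus lay between opposite changes of -0.63 and 0.49.

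The change from 0 mo was compared between the labels in a fit of all 8 arrays with the month, the label and the label at later months as terms. The difference in log2 change, grazing minus housed, was 1.12 for miR-142-5p (SE 0.41, unadjusted p = 0.0141, limma adjusted p = 0.288), the 7th smallest p of 143. It was 0.63 for miR-223 (SE 0.44, limma adjusted p = 0.802) and 0.51 for miR-21-5p (SE 0.41, limma adjusted p = 0.827). Of the 143 miRNAs, 2 passed (1.4%), both with a positive value and none of them among these 3. The value of 1.12 was the sum of the later difference of 0.46 and the size of the opposite difference of -0.66 at 0 mo, and the 0 mo part rests on 1 array of each label. For miR-21-5p the 0 mo difference was -0.64 and for miR-223 -0.21. At an unadjusted p under 0.05, 52, 34 and 9 of 143 miRNAs passed in the 3 comparisons in the order given.

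**Figure D3:**
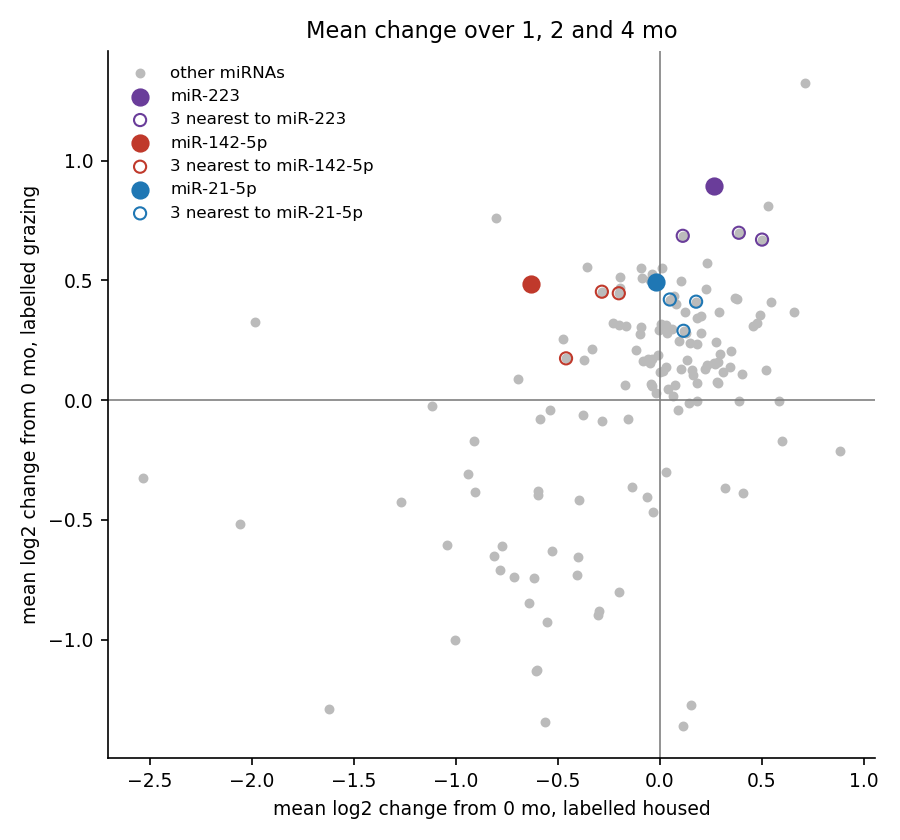
Mean log2 change from 0 mo over 1, 2 and 4 mo, labelled grazing against labelled housed, with a point for each of the 143 miRNAs detected on all arrays; open circles are the 3 miRNAs nearest to each by the log2 ratio. miR-223 lies at 0.27 housed and 0.90 grazing, miR-142-5p at -0.63 and 0.49, and miR-21-5p at -0.02 and 0.49.

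Whether the 3 miRNAs moved together was described by the log2 ratio of each pair within an array, which does not depend on a scaling factor. The SD of the ratio over 8 arrays was 0.45 for miR-223 and miR-142-5p, 0.39 for miR-223 and miR-21-5p, and 0.35 for miR-142-5p and miR-21-5p. The ranges of 1.15, 1.22 and 0.93 were several times the error estimates of 0.15, 0.14 and 0.14. Against all 142 other miRNAs the median SD was 0.58 for miR-223, 0.44 for miR-142-5p and 0.35 for miR-21-5p. The SD of miR-223 to miR-142-5p was thus below the median for the former and slightly above it for the latter.

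The ratio of miR-223 to miR-142-5p was higher at 1 and 2 mo than at 0 mo under both labels. Its log2 change was 1.10, 1.03 and 0.57 at 1, 2 and 4 mo labelled housed, and 0.69, 0.70 and -0.16 labelled grazing, with an error estimate of 0.22. The changes at 1 and 2 mo had the same sign under the labels although miR-142-5p alone did not. Labelled grazing, the ratio was back within the error of its start at 4 mo.

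The ratio of miR-223 to miR-21-5p had log2 changes of 0.48, 0.29 and 0.08 labelled housed, against 0.36, 0.79 and 0.06 labelled grazing, with an error estimate of 0.20. It was higher than at 0 mo at all 6 later points and by less than the error at 4 mo. The ratio of miR-142-5p to miR-21-5p had changes of -0.62, -0.73 and -0.49 labelled housed, against -0.33, 0.09 and 0.22 labelled grazing. At 0 mo this last ratio differed between the labels by only -0.02, the smallest such difference of the 3 pairs.

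From one month to the next, each pair had the same sign of scaled change in 4 of 6 steps, and all 3 miRNAs in 3 of 6. The step from 0 to 1 mo labelled grazing was upward for each (1.15 for miR-223, 0.46 for miR-142-5p and 0.79 for miR-21-5p) and that from 2 to 4 mo downward (-1.14, -0.28 and -0.41). Labelled housed, the step from 0 to 1 mo parted miR-223, at 0.51, from miR-142-5p, at -0.59.

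**Figure D4:**
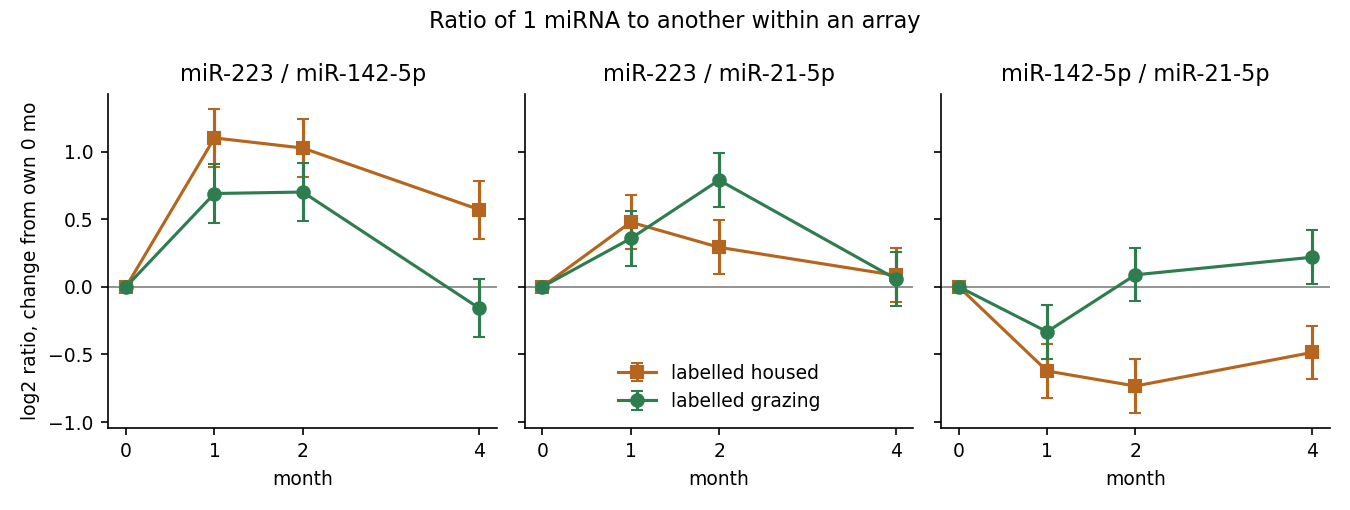
Change of the log2 ratio of each pair since 0 mo under its own label against month (squares, labelled housed; circles, labelled grazing), with 1 array per point and bars for the error estimate. The ratio of miR-223 to miR-142-5p lies between 0.69 and 1.10 at 1 and 2 mo under both labels, and the ratio of miR-142-5p to miR-21-5p lies between -0.73 and -0.49 at the later months labelled housed.

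Other miRNAs were nearer to each of the 3 than they were to one another. For miR-223 the smallest SDs of the log2 ratio were those of miR-30d (0.16), miR-221 (0.18) and miR-345-5p (0.21), and miR-21-5p came 21st and miR-142-5p 40th. For miR-142-5p they were miR-361 (0.19), miR-19b (0.20) and miR-29a (0.20), and miR-21-5p came 32nd and miR-223 74th. Of these 3 neighbours, miR-361 and miR-19b also had opposite courses under the labels at all later months. miR-21-5p was nearest to miR-151-3p (0.09), miR-26b (0.10) and miR-20a (0.11), and miR-142-5p came 72nd and miR-223 81st. These orders are over the same 8 arrays and carry no test, and a shared course is partly built into them.

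Of the 10 miRNAs in a wider myeloid and inflammation-linked list, 5 were detected on at least 1 array, against 231 of 744 on the whole array (31.0%). On all 8 arrays 2 were detected, against 143 of 744 (19.2%), namely miR-155, which is raised in activated leukocytes, and miR-125b. Neither passed any of the 3 tests, and the median difference between the labels at the later months was -0.20, against -0.01 over all 143. miR-146a, which damps inflammatory signalling, was detected on 0 of 8 arrays. The list held 0.204% to 0.282% of the summed signal labelled housed and 0.146% to 0.170% labelled grazing.

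Some miRNAs on lists for other cell types differed between the labels at the later months, where 16 of all 143 miRNAs passed (11.2%). In this comparison 0 miRNAs passed with quantile normalization, without the 4 mo arrays, or with miRNAs detected on at least 4 arrays. None of the miRNAs named below thus passed under those settings. The lists were chosen with earlier results of these data known. Of the 3 red-cell miRNAs, all detected on 8 arrays, miR-144 was lower labelled grazing at the later months by -1.38 (limma adjusted p = 0.00108) and miR-451 by -0.92 (limma adjusted p = 0.0144), whereas miR-486 did not pass, and the median of the list was -0.92. The summed red-cell share at the later months was 3.19% to 4.28% labelled housed and 1.41% to 1.85% labelled grazing. Of the 5 platelet-rich miRNAs, 4 were detected on all arrays and 1 of these passed, miR-126-5p at -0.70 (limma adjusted p = 0.0327). The study's paper describes miR-126-5p as specific to endothelium. Of the 4 differences 1 was positive, and the list had a median of -0.31. Its share at the later months was 5.29% to 7.23% labelled housed against 3.58% to 3.99% labelled grazing. At 0 mo the platelet-rich share already differed, at 4.90% labelled housed against 3.16% labelled grazing. Of the 4 lymphocyte miRNAs, 3 were detected on all arrays and 1 of these passed, miR-150 at 0.83 (limma adjusted p = 0.0144), with a list median of 0.40. The lymphocyte shares overlapped, at 0.119% to 0.165% labelled housed and 0.142% to 0.176% labelled grazing. Of 4 liver miRNAs 1 was detected on all arrays and did not pass, and of 7 muscle miRNAs only miR-133b was detected, on 2 arrays. No list had a miRNA that passed either of the other comparisons. The part of these cells in the values of miR-223, miR-142-5p and miR-21-5p was not tested.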

How the data were processed

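Exosomal RNA of 3 steers was pooled per feeding group and month, labelled with Cy3 and hybridized by the authors to 8 arrays of a custom Agilent design for miRBase miRNAs. The authors quantified them with Feature Extraction 10.7.3.1, per the labels, and deposited the scanner files, whose intensity values have the background subtracted and no scaling between arrays. The deposited series table holds a ratio, linear and not centred, and was used as an alternative. Its values lay within 1% of the total gene signal over 1 factor per array for 1006 of 1370 detected values, and of the sum of the probes above 3 times their error over 1 factor for 1370 of 1370. Its 743 rows share 730 names with the arrays, its column medians lay between 0.000664 and 0.00257, and how the authors took their 90 percentile stays unknown. Of its columns 0 were left out.

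Total gene signals were divided by the 90th percentile of each array over 744 miRNAs. Undetected values, and 104 of 1398 detected ones, were set to a floor of 0.114 before log2. The 143 miRNAs detected on all 8 arrays were tested with limma 3.58.1 in R 4.3.3, with Benjamini-Hochberg adjustment at 0.05. The fits were tried on simulated data with independent arrays and changes larger than those of the 3 detected miRNAs. That trial does not cover smaller changes or repeated pools of the same steers. The later months of a label come from the same steers and stand in for repeats, so p-values measure only the spread between these arrays, whose number limits the precision. Python 3.11.15, numpy 2.4.6 and pandas 2.3.3 were used for the rest.

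Groups came from the deposited labels. The 4 miRNAs and the lists were chosen with earlier results of these data known. Named beside them were the other arm of each hairpin, the 3 miRNAs with the smallest SD of the log2 ratio to each, and list members past a test. miRNAs with the same seed were to be named too, but no mature sequences were used here. Alternatives were other scalings (75th and 90th percentile of the detected miRNAs, their summed signal, let-7g, quantile, none), mean spot signal, normexp with an offset of 50, the series table, each later month left out, miRNAs detected on at least 4 arrays, an intensity trend in limma, and the brightest probe alone. Those without a 0 mo array, and the courses under each scaling, were added after seeing the data.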

Additional observations from a re-analysis of the deposited data

Results flagged for a closer look

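miR-142-5p and 2 of the 3 miRNAs nearest to it by the log2 ratio went in opposite directions under the labels at all later months. The mean log2 change from 0 mo, grazing minus housed, was 1.12 for miR-142-5p, 0.74 for miR-361 and 0.65 for miR-19b. Each lay below its 0 mo array on all 3 later arrays labelled housed and above it on all 3 labelled grazing. For miR-142-5p the limma test of this difference gave an adjusted p of 0.288. The same limma fit gave an adjusted p of 0.802 for both miR-361 (SE 0.41) and miR-19b (SE 0.41). Both were picked on these same arrays for their likeness to miR-142-5p, so a shared course is partly built in and lends no support. The pattern was shown by 13 of 143 miRNAs (9.09%), and with 1 array per group no array could be held against others of its group.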

How the results depend on the processing

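Under all 30 pairings of spread and alternative, the 3 ratio spreads moved by less than the error estimate of a ratio on an array. That estimate is not an error of the SD. The furthest move was from 0.35 to 0.23, for miR-142-5p and miR-21-5p with quantile normalization. The series table could hardly move a spread, since a factor per array cancels in a ratio. The difference in change between the labels kept its sign and stayed short of the threshold in 42 of 42, the label difference in 36 of 42 and the change from 0 mo in 42 of 48. The label difference reversed for miR-223 (-0.42) and miR-142-5p (-0.38) without scaling, and for miR-21-5p with let-7g (0.20), with quantile normalization (0.14) and without the 4 mo arrays (0.053). That of miR-142-5p passed the threshold with let-7g (0.79). The change from 0 mo reversed for miR-142-5p with the 90th percentile of detected miRNAs (0.042), with their summed signal (0.14) and without the array labelled housed 0 mo (0.49), and for miR-21-5p without scaling (-0.11) and without the array labelled grazing 0 mo (-0.018). That of miR-223 passed without the 4 mo arrays (0.81). The cause was not tested. Values that kept their sign still moved in size: over all alternatives with a positive value, the label difference of miR-223 lay between 0.079 and 0.75 and that of miR-142-5p between 0.12 and 0.79, and the difference in change lay between 0.20 and 1.21 for miR-223, 0.69 and 1.69 for miR-142-5p, and 0.08 and 1.09 for miR-21-5p.

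The counts of miRNAs called moved far more. The label difference, 16 as reported, gave 1, 2 and 0 without the arrays of 1, 2 and 4 mo. It gave 2 with the 75th and 29 with the 90th percentile of detected miRNAs, 3 with the summed signal, 33 with let-7g, 0 with quantile normalization and 3 without scaling. It gave 8 with the mean spot signal, 8 with the series table, 0 with miRNAs detected on at least 4 arrays and 32 with an intensity trend. The change from 0 mo, 10 as reported, gave 0, 0 and 20 without the arrays of 1, 2 and 4 mo, and 0 and 5 without the array labelled housed 0 mo and labelled grazing 0 mo. It gave 19 with the 75th and 1 with the 90th percentile of detected miRNAs, 2 with the summed signal, 4 without scaling and 0 with the series table. The difference in change, 2 as reported, gave 0 under 13 of 14 alternatives and 2 with the intensity trend. The lowest detected signal, 3.28 to 4.10 by array, limits what can be said of miR-142-3p.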
